A study of Rattus norvegicus with 6 samples.

Results

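SoxE and SoxD are 2 groups of SOX transcription factors, and the 6 genes described here are their members: Sox8, Sox9 and Sox10 (SoxE) and Sox5, Sox6 and Sox13 (SoxD). They were chosen by gene symbol, and all 6 were found among the 27217 genes of the table, Sox5 under the older symbol Sox5l1. RNA was sequenced from RCS cells (3 libraries), a chondrocyte-like line that was grown out of a rat chondrosarcoma, and from rib tissue of neonatal rats (3 libraries). RCS cells are a single line, and no strain, treatment or gene change is given for either group. The replicates are called biological in the study's design text, which does not tell which cultures or animals they are, so p-values measure only the spread between these libraries.

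SOX proteins bind DNA through an HMG box, which bends the double helix. SOX9 is required for cartilage to form and activates the genes of its matrix, and SOX5 and SOX6, which lack an activation domain of their own, help it on the same enhancers, so that the 3 are called the SOX trio. SOX8 and SOX10 have the same build as SOX9 and can bind as dimers as it does. SOX10 is best known from the neural crest, Schwann cells and pigment cells. SOX13 is a SoxD protein known in mice from a class of T cells as well as from embryonic tissues.

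Values were read as normalized counts, that is, reads on a gene divided by 1 factor per library. On that reading gene length does not enter them, so levels of different genes are not comparable. Sums over lists and the choice of the marker of highest mean were not corrected for length. One read was worth 0.519 to 0.709 normalized counts in RCS libraries and 0.758 to 1.03 in rib libraries, at an estimated 6000000 to 8520000 and 5320000 to 7490000 reads per library. Differences are RCS cells minus rib tissue in log2(normalized count + 1), tested with limma over 16809 genes and adjusted by Benjamini-Hochberg, and a gene is called at an adjusted p under 0.05. The 7 chondrocyte markers, among them Col2a1 and Acan, were present in every library of both groups. Rib tissue also held muscle, bone, blood, vessel and nerve markers, most of which were lower in RCS cells. Of the nerve (Schwann cell) markers, 2 were higher. In such bulk tissue, fewer cells of a type and less RNA per cell cannot be told apart.

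Among the SoxE genes, Sox9 did not pass the test, Sox8 was higher in RCS cells and Sox10 was lower. Sox9 (ENSRNOG00000002607) had 1074, 1081 and 831 normalized counts in RCS libraries 1 to 3, against 1306, 1019 and 1463 in rib libraries 1 to 3. The groups overlapped, since rib library 2 lay below 2 of the 3 RCS libraries. The difference was -0.34 (SE 0.16, 95% interval -0.70 to 0.02, adjusted p 0.0772 in limma), so a level 1.26-fold higher in rib tissue was not told apart from none. Without rib library 2 it was -0.48 and was called (adjusted p 0.025 in limma, with 0.025 to 0.474 over 13 alternatives).

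Sox8 (ENSRNOG00000018841), a close relative of Sox9 that can share its functions in other organs, had 833, 889 and 736 normalized counts in RCS cells, against 148, 175 and 177 in rib tissue. Every RCS library was far above every rib library, and the replicates of each group were close. The difference was 2.29 (SE 0.11, interval 2.04 to 2.54, adjusted p 4.43e-07 in limma), 4.89-fold. In reads, Sox8 rested on 1039 to 1713 per RCS library and 171 to 196 per rib library.

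Sox10 (ENSRNOG00000011305) had 1.63, 1.56 and 1.42 normalized counts in RCS cells, which is 3, 3 and 2 reads, against 60.6, 71.2 and 49.7 in rib tissue, or 80, 69 and 50 reads. It was thus near the limit of detection in every RCS library and well above it in every rib library, with no overlap. Over all libraries of a group there were 8 reads in RCS cells against 199 in rib tissue, with a ratio after scaling of 39.1 in favour of rib tissue (exact 95% interval 19.5 to 91.8, counting error only). The difference was -4.59 (SE 0.26, adjusted p 1.13e-06 in limma), and its size depends on the scaling and the pseudocount, at -2.61 after quantile normalization and -5.20 with a pseudocount of 0.1.

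Markers of Schwann cells, in which Sox10 is active, were mostly lower too. Of 15 such genes, 11 (73.3%, against 43.6% of all tested genes) were lower in RCS cells, 2 were higher and 2 did not pass, at a median difference of -1.66, against -0.15 for all genes tested. Of the 11, Gfra3 and Foxd3 were tested only because of their rib values and could not come out higher, which leaves 9. The myelin gene Mbp had a log2 level of 3.01 ± 0.31 in RCS cells, against 9.13 ± 0.33 in rib tissue (SD, n = 3 each), and Gfra3 and the neural crest factor gene Foxd3 were listed at 0 in every RCS library. The higher genes were Cnp and the cadherin gene Cdh19, a Schwann cell precursor marker, with log2 levels of 6.93 ± 0.16 in RCS cells against 4.37 ± 0.28 in rib tissue (difference 2.56, adjusted p 7.3e-06 in limma). The list summed to 2777 to 2833 normalized counts per RCS library, against 4345 to 5361 per rib library. The part of Schwann cells in the Sox10 difference was not tested.

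**Figure D1:**
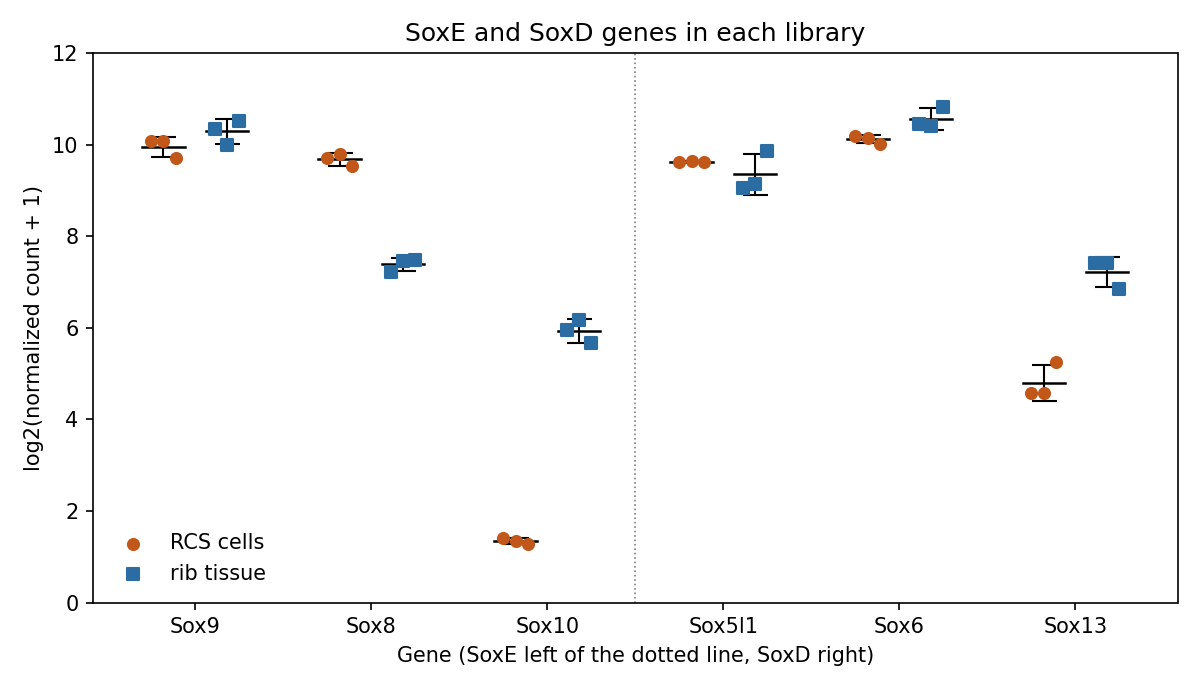
Level of each SoxE and SoxD gene as log2(normalized count + 1), 1 point per library, for RCS cells (circles) and rib tissue (squares), with the mean and SD of 3 libraries as bars. Sox8, Sox10, Sox6 and Sox13 have groups that do not overlap, with Sox8 above rib tissue in RCS cells and the other 3 below it.

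Among the SoxD genes, Sox5 did not pass the test, Sox6 was slightly lower in RCS cells and Sox13 much lower. Sox5 (Sox5l1, ENSRNOG00000027869) had 790, 797 and 786 normalized counts in RCS cells, against 532, 564 and 937 in rib tissue. The RCS libraries were nearly equal and lay between rib library 3 and the other 2 rib libraries. The difference was 0.27 (SE 0.19, interval -0.18 to 0.72, adjusted p 0.232 in limma). Rib library 3 decides this: without it the difference was 0.53 and Sox5 was called higher in RCS cells (adjusted p 0.000459 in limma, with 0.000459 to 0.614 over 13 alternatives).

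Sox6 (ENSRNOG00000020514), the usual partner of Sox5 in cartilage and also a factor of muscle fibres and red blood cells, had 1163, 1138 and 1041 normalized counts in RCS cells, against 1387, 1346 and 1813 in rib tissue. There was no overlap, but RCS library 1 and rib library 2 were close. The difference was -0.43 (SE 0.12, interval -0.71 to -0.15, adjusted p 0.0115 in limma), 1.35-fold higher in rib tissue. The call was lost after quantile normalization, which moved the median of all genes by 0.47 towards RCS cells (Sox6 -0.14, adjusted p 0.185 in limma, with 0.00945 to 0.185 over 13 alternatives).

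Markers of the other tissues that use Sox6 were also lower in RCS cells. All 14 skeletal muscle markers tested were lower (100%, against 43.6% of all tested genes). They summed to 187 to 224 normalized counts per RCS library against 25115 to 46354 per rib library. Myh7, Myod1, Myog and Pax7 were listed at 0 in every RCS library. Of 8 erythroid markers tested, 6 (75%) were lower and 2 neither, with a sum of 21 to 25.8 per RCS library against 507 to 2032 per rib library. Hbb, Hba-a2 and Tal1 were at 0 throughout the RCS libraries. So were Gata1 and Ermap, which had only 1.14, 1.54 and 0 and 5.65, 3.73 and 0 normalized counts in rib tissue and were not tested. Hbb and Gata1 each had 2 entries, and the values are those of the entry with the higher mean. Of the lower markers, 5 of the 14 muscle genes and 5 of the 6 erythroid genes would not have passed the filter without rib tissue. In rib tissue, Sox6 was highest in library 3, where both sums were lowest. The part of these tissues in the Sox6 difference was not tested.

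Sox13 (ENSRNOG00000028353) had 22.9, 22.7 and 37 normalized counts in RCS cells, or 42, 44 and 52 reads, against 169, 169 and 114 in rib tissue, or 223, 165 and 114 reads. The highest RCS library, library 3, was still far below the lowest rib library, also library 3. The difference was -2.42 (SE 0.25, adjusted p 3.69e-05 in limma), 5.36-fold higher in rib tissue, and -1.66 after quantile normalization. It was called in all 13 alternatives.

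Of the 6 genes, 1 was higher in RCS cells, 3 were lower and 2 were neither. Across all tested genes 76.5% were called, 32.9% higher and 43.6% lower, and the groups did not overlap at 78.9%, so 4 calls and 4 members without overlap are no more than the table's usual share. A called difference of at least 2-fold was found for 1 member higher (Sox8) and 2 lower (Sox10 and Sox13), where 14.1% and 33.1% of all tested genes had one. Of all genes, 5536 were higher and 7324 lower, while quantile normalization gave 8000 higher and 4924 lower and cyclic loess 6242 higher and 6206 lower. Cyclic loess moved the median of all genes by 0.18, and the members then kept 1 higher and 3 lower. Leaving out rib library 2 gave 4 members lower, and leaving out rib library 3 gave 2 higher. None of the 6 differences changed sign under any of the 13 alternatives.

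**Figure D2:**
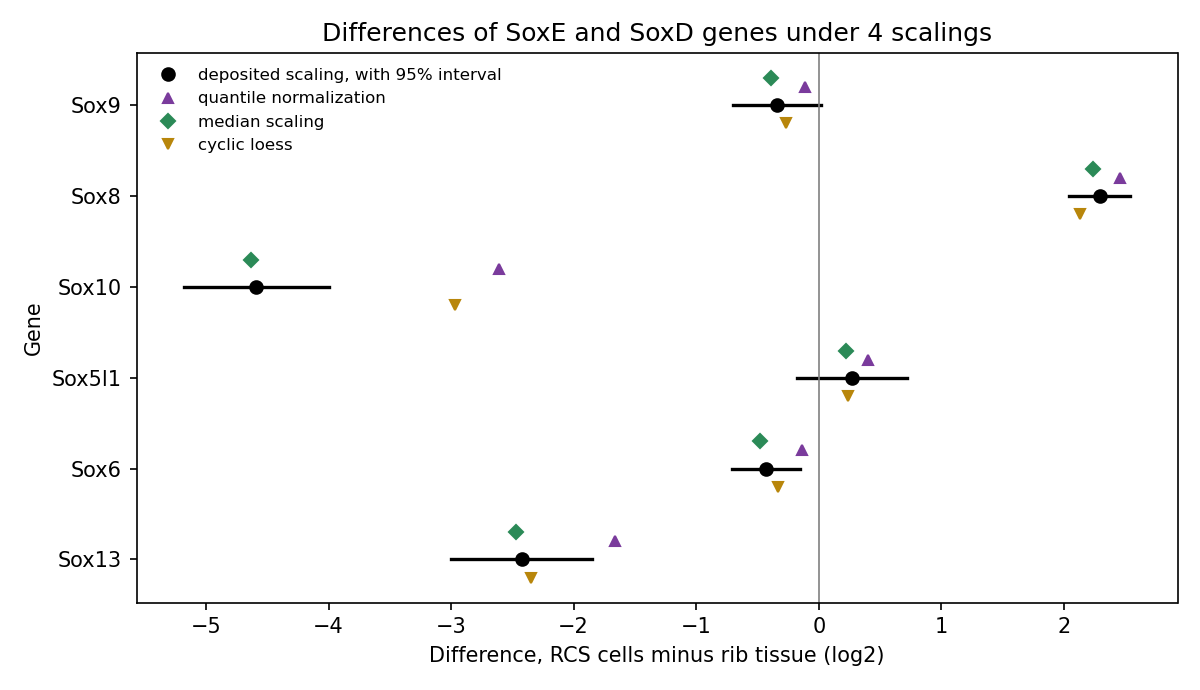
Difference of each gene between RCS cells and rib tissue (log2), as a black point with its 95% interval for the deposited scaling and as coloured markers for 3 other scalings. Sox8 stays above 0 and Sox10 and Sox13 stay below it under each scaling, while the points of Sox9, Sox5l1 and Sox6 lie within 0.5 of 0.

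The sequences just upstream of Sox6 and Sox13 are shown because only these 2 of the 6 members were matched to a promoter sequence. They are the 250 bases before the annotated start in RefSeq (build GRCr8, read 5′ to 3′ along the gene, both on the minus strand), for Sox6 chr1:179665372-179665621 and for Sox13 chr13:47427573-47427822. For each gene the first listed start was taken, and other starts were not looked for. Capitals mark ACAAT or its reverse complement ATTGT, the core of the motif that SOX proteins bind.
Sox6: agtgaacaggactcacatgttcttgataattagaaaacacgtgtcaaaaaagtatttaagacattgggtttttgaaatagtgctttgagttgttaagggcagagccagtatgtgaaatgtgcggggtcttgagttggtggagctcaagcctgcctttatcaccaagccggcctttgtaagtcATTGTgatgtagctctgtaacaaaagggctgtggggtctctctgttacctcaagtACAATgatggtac
Sox13: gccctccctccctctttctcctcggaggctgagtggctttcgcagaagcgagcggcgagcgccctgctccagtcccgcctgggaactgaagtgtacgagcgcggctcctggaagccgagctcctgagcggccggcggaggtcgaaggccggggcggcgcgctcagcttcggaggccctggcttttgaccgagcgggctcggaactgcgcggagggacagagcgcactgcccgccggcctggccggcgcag

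The Sox6 window held the motif at 2 places that do not overlap, which begin 68 and 13 bases before the start. The Sox13 window held none. Of all 33469 RefSeq rat promoter windows of this length, 30% held the motif on either strand, so its presence or absence is common. The Sox6 window was 42.8% G or C with 3 CpG, and the Sox13 window 72% with 30 CpG, against a median of 51.2% over all windows. Nothing in the data measures binding in either window.

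A ratio of members within a library, here of normalized counts + 1, hardly depends on a factor common to the whole library, and gene length nearly cancels when the ratio is compared between groups. It does depend on scalings that act differently at different levels, such as quantile normalization and cyclic loess. In all, 8 pairs were compared with an exact two-sided permutation test over the 6 libraries, which cannot go below p = 0.1. Within SoxE, the Sox8/Sox9 ratio was 0.776, 0.823 and 0.887 in RCS cells, against 0.114, 0.173 and 0.122 in rib tissue. It was higher in every RCS library, by 2.63 ± 0.19 (log2, SE) or 6.18-fold (exact permutation p = 0.1, 0.114 adjusted over the 8 pairs). The Sox8/Sox10 ratio was higher in RCS cells by 6.88 ± 0.19 and the Sox10/Sox9 ratio lower by a shift of -4.25 ± 0.31, both resting on the 8 Sox10 reads of the RCS libraries. These shifts were 7.5 and -4.86 with a pseudocount of 0.1, 5.06 and -2.50 after quantile normalization and 5.10 and -2.70 under cyclic loess, so their direction held but not their size.

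Within SoxD, the Sox5/Sox6 ratio was 0.679, 0.701 and 0.756 in RCS cells, against 0.384, 0.420 and 0.517 in rib tissue. There was no overlap, with every RCS library higher, and the shift was 0.70 ± 0.13 or 1.63-fold (exact permutation p = 0.1, 0.114 adjusted). Sox13 was lower relative to both partners in RCS cells, by a shift of -1.99 ± 0.42 against Sox6 and -2.69 ± 0.50 against Sox5 (-2.06 after quantile normalization). Within the trio, the Sox6/Sox9 ratio was 1.08, 1.05 and 1.25 in RCS libraries against 1.06, 1.32 and 1.24 in rib libraries. These overlapped, with a shift of -0.09 ± 0.12 (exact permutation p = 0.6). The Sox5/Sox9 ratio was 0.736, 0.738 and 0.947 in RCS libraries against 0.408, 0.554 and 0.640 in rib libraries, with no overlap and a shift of 0.61 ± 0.23 (exact permutation p = 0.1, 0.114 adjusted).

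**Figure D3:**
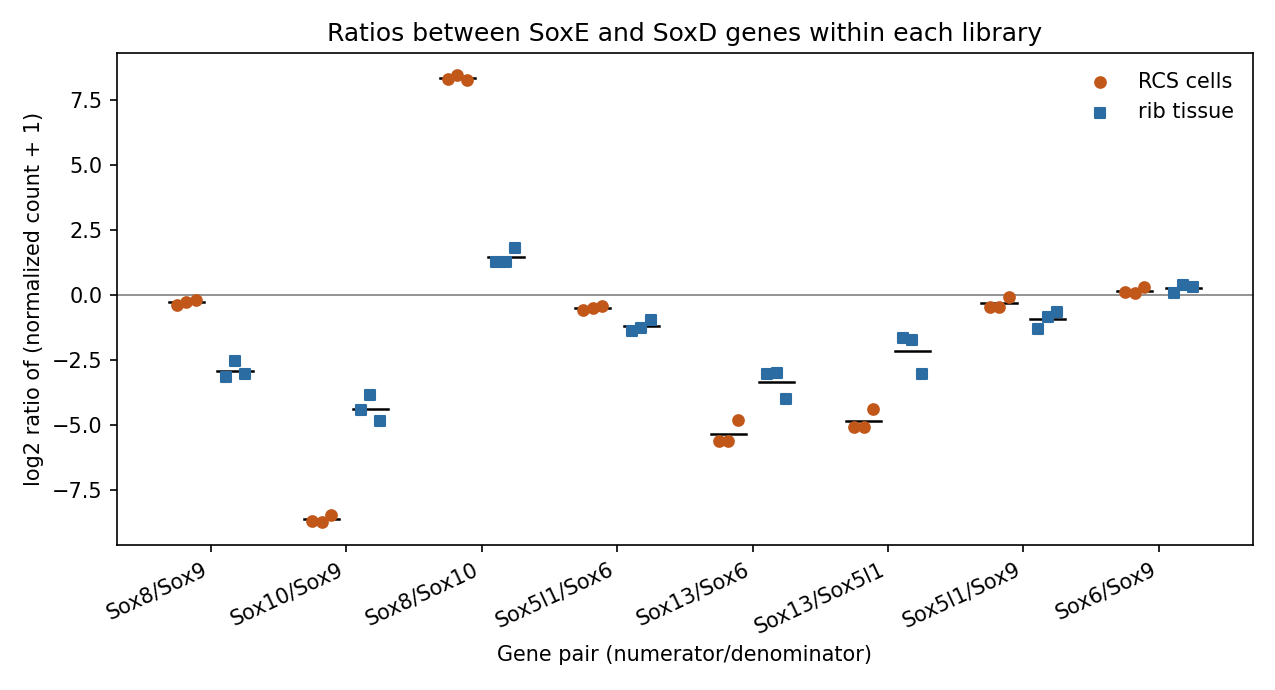
log2 ratio of 2 members within each library for 8 gene pairs, 1 point per library, with RCS cells as circles, rib tissue as squares and the group mean as a line. The Sox6/Sox9 ratio overlaps between the groups, and the Sox8/Sox10 ratio has the widest gap.

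The 3 rib libraries differed from each other in the members and in their tissue markers. Sox9, Sox5 and Sox6 were highest in rib library 3, by 0.23, 0.51 and 0.27 (log2) over the rib mean, and Sox10 and Sox13 were lowest there, by -0.27 and -0.38. Sox8 deviated by at most 0.17 in any rib library. The chondrocyte marker mean deviated by 0.05, -0.31 and 0.25 in rib libraries 1 to 3, and Sox9 by 0.06, -0.30 and 0.23. The Schwann cell marker mean deviated by -0.19, 0.23 and -0.03, and Sox10 by 0.02, 0.24 and -0.27, so these were lowest in different libraries. Rib library 3 was lowest in hypertrophic chondrocyte (-1.34), osteoblast (-1.20), erythroid (-1.08), skeletal muscle (-0.66) and myeloid markers (-0.62). It was also lowest in endothelial (-0.37) and fibroblast markers (-0.13). Whether tissue makeup underlies the spread of the members was not tested.

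**Figure D4:**
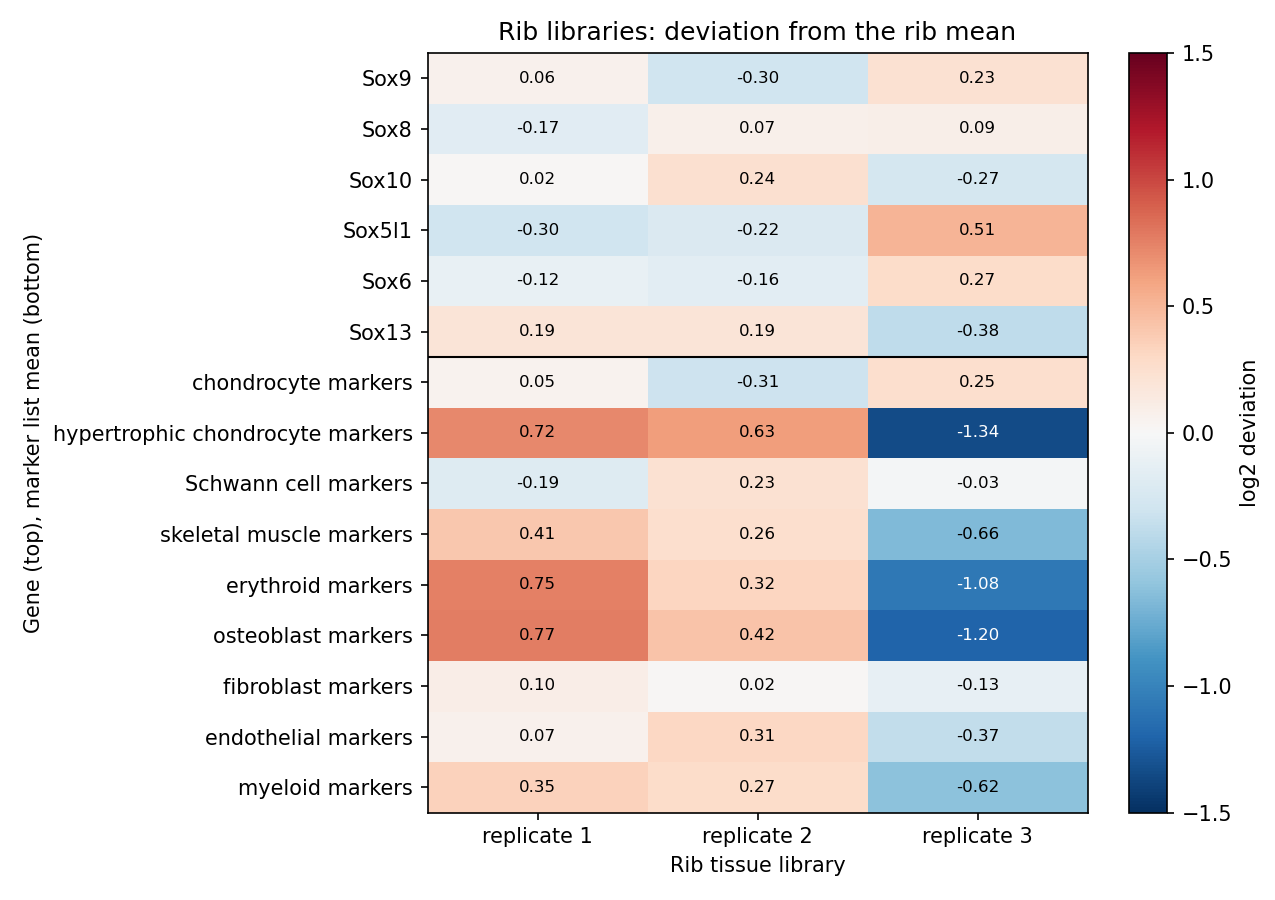
Deviation of each rib library from the mean of the 3 rib libraries (log2), for the 6 genes (top) and for the mean of each marker list (bottom), with red above and blue below the mean. Replicate 3 is high in Sox9, Sox5l1, Sox6 and the chondrocyte markers and low in Sox13 and the muscle, bone and blood markers.

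Set against the mean of the 7 chondrocyte markers in the same library, a measure chosen after the values were seen, Sox9 was nearly the same in all 6 libraries under the deposited scaling. It stood at -2.99, -2.88 and -2.93 (log2) in RCS libraries, against -2.84, -2.84 and -2.89 in rib libraries. The groups overlapped, at -2.94 ± 0.06 and -2.86 ± 0.03 (SD, n = 3 each), a difference of -0.08. On this scale Sox6 also overlapped (-0.17), while Sox5 was higher in every RCS library (0.53), as was Sox8 (2.55), and Sox10 (-4.33) and Sox13 (-2.16) were lower. These values depend on the scaling. Sox9 was lower by -1.23 on this scale after quantile normalization and by -0.66 under cyclic loess, Sox6 by -1.27 and -0.71, and Sox5 changed sign, to -0.72 and -0.15, while Sox8 stayed higher (1.33 and 1.74) and Sox10 (-3.73 and -3.36) and Sox13 (-2.78 and -2.74) stayed lower. The 7 markers did not move together between the groups, since Matn1 and Comp were higher in RCS cells and Col2a1 and Col11a2 lower.

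Cartilage genes linked to SOX9, SOX5 and SOX6, mostly matrix genes that these factors activate, split in direction. Of 25, all tested, 5 (20%, against 32.9% of all tested genes) rose in RCS cells, 8 (32%, against 43.6%) fell and 12 did not pass, at a median difference of -0.08 against -0.15 over all genes. The higher genes were led by the matrix protein genes Matn1 (1.70, SE 0.15) and Prelp (1.59, SE 0.13), followed by the growth factor receptor gene Fgfr3 (0.99) and by Comp and Snorc (0.49 and 0.48). The lower ones were led by Ucma, a small secreted cartilage protein gene, at 17.7, 31.4 and 53.2 normalized counts in RCS cells against 2510, 2013 and 3643 in rib tissue (-6.37, SE 0.37). Next was the cell-binding matrix protein gene Chad, at 86.4, 83 and 101 against 1233, 1111 and 1565 (-3.83, SE 0.14), with no overlap in either gene.

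Col2a1, the collagen gene most closely tied to SOX9, had 16801, 14707 and 10780 normalized counts in RCS cells, against 112920, 55595 and 97595 in rib tissue (-2.62, SE 0.32). Its level was thus lower in each RCS library, while Sox9 itself overlapped between the groups. The count of higher genes depends on the scaling, with 17 higher and 6 lower after quantile normalization (median 0.76) and 12 higher and 8 lower after cyclic loess (median 0.27). It was 3 without RCS library 2, rib library 1 or rib library 2.

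**Figure D5:**
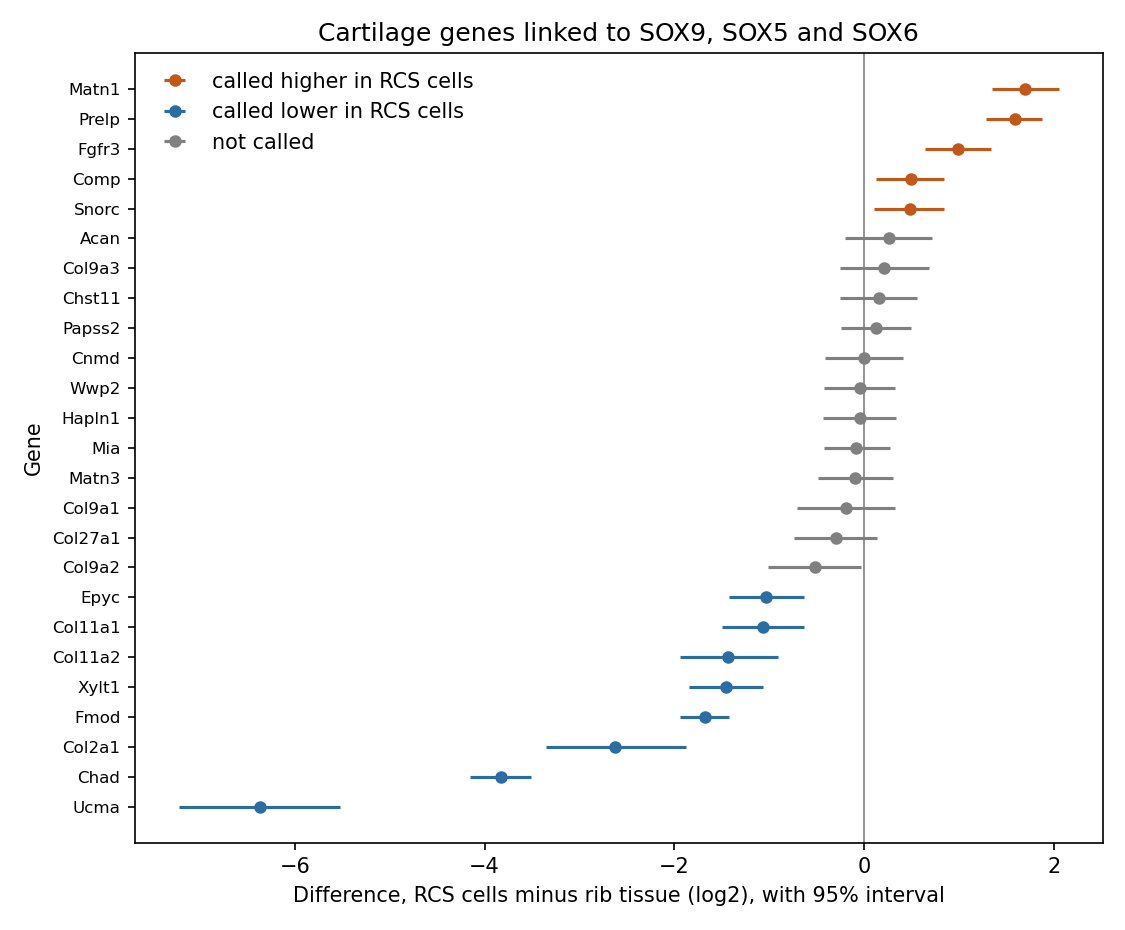
Difference between RCS cells and rib tissue (log2) with its 95% interval for 25 cartilage genes linked to the SOX trio, coloured by call. The intervals of 11 of the 12 genes not called include 0, and Ucma and Chad lie furthest below it.

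Genes for coactivators and modifiers of SOX9 were called in both directions. Of 18, 3 (16.7%, against 32.9% of all tested genes) rose in RCS cells, 8 (44.4%, near the 43.6% of all genes) fell and 7 did not pass (median -0.23). Arid5b, which helps SOX9 by bringing a histone demethylase to its targets, had 26.1, 20.1 and 34.5 normalized counts in RCS cells, against 547, 694 and 511 in rib tissue (-4.41, SE 0.21, adjusted p 4.37e-07 in limma). Ppargc1a, a metabolic coactivator that is also abundant in muscle, had 2.18, 0 and 2.83 normalized counts in RCS cells, against 108, 129 and 49.3 in rib tissue. It would not have passed the filter without rib tissue. The higher genes were Kat5 (0.24), Ctbp2 (0.45), whose product is a corepressor, and Zfp219 (0.30), and the Zfp219 groups overlapped and its call was lost in 6 of 13 alternatives, namely under median scaling (0.25) and cyclic loess (0.13) and without RCS library 1 (0.23), RCS library 2 (0.29), rib library 2 (0.24) or rib library 3 (0.27). The count of higher genes was 1 under median scaling or cyclic loess and without RCS library 1 or rib library 2. Only Ctbp2 was left there, so Kat5 also lost its call. The count was 2 without RCS library 3 or rib library 1, where Ctbp2 and Zfp219 were called and Kat5 was not. It was also 2 without RCS library 2 or rib library 3, where Zfp219 was not called.

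Signals known to act upstream of Sox9 were mostly lower in RCS cells. Of 25 tested, 4 (16%, against 32.9% of all tested genes) were higher, 18 (72%, against 43.6%) lower and 3 neither (median -0.63). Of the 18, Fgf18, Bmp4, Gdf5 and Bmp2 would not have passed the filter without rib tissue, which leaves 14. Fgf18 and Bmp4, at 0 in every RCS library, could not come out higher. Bmp2 had 1.09, 0 and 2.13 normalized counts in RCS cells. Gdf5, a growth factor gene of forming joints, was listed at 0, 0 and 1.64 normalized counts in RCS cells, against 186, 135 and 201 in rib tissue. Fgf18 was at 0 throughout the RCS libraries, against 103, 103 and 65.3 in rib tissue. The higher genes were Nkx3-2, a cartilage homeobox factor gene (2.60, SE 0.17, with 515, 503 and 472 in RCS cells against 83, 62.3 and 102 in rib tissue), the hedgehog effector gene Gli1 (0.94), Notch1 (0.92) and the BMP antagonist gene Nog (0.62). Shh was listed at 0 in all 6 libraries.

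Other Sox genes also differed between the groups. Sox2, a stem cell and neural factor gene, had 251, 260 and 230 normalized counts in RCS cells, against 4.45, 3.59 and 3 in rib tissue. Sox11, Sox17 and Sox18, the last pair known from blood and lymph vessels, were listed at 0 in every RCS library, with 35.6 to 66.1, 29.7 to 79 and 62 to 116 in rib tissue, and Sox7 had 1.42 to 2.18 against 82 to 171. Of 7 tested, 1 was higher (14.3%, against 32.9% of all tested genes) and 5 lower (71.4%, against 43.6%). Sox12 was neither (0.15, but -0.08 under cyclic loess). Sox11, Sox17 and Sox18 were tested only because of their rib values, so that no higher call was possible, which leaves 2 of the 5, Sox7 and Sox15. Sox15 had a difference of -0.74 that turned to 1.56 after quantile normalization and 0.91 under cyclic loess, and its call was lost without RCS library 1, 2 or 3 (adjusted p 0.0602, 0.104 and 0.054 in limma). Sox14 and Sox30 were listed at 0 in all 6 libraries.

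The remaining marker lists show what else differed between the samples. Of the 7 chondrocyte markers, 2 (28.6%, against 32.9% of all tested genes) rose in RCS cells, 2 (28.6%, against 43.6%) fell and 3 did not pass. After quantile normalization 5 rose and 1 fell, and under cyclic loess 5 rose and 2 fell (medians 1.38 and 0.68, against -0.04). A single marker, 1 of the 7, rose without RCS library 1 or 2 or rib library 1 or 2. They summed to 52833 to 73001 normalized counts per RCS library against 98048 to 165867 per rib library, a gap that Col2a1 carried, since the other 6 summed to 42053 to 56200 and 42453 to 64381, which overlap. All 4 hypertrophic chondrocyte markers were lower, among them Col10a1 (log2 level 2.89 ± 0.30 in RCS cells against 10.76 ± 0.95 in rib tissue, SD, n = 3 each). Lower too were 7 of 10 osteoblast (70%), 9 of 10 fibroblast (90%), 8 of 9 endothelial (88.9%) and all 9 myeloid markers. Of all tested genes, 43.6% were lower. None of these lists held a higher marker under the deposited scaling. Ibsp belongs to both the hypertrophic and the osteoblast list. Of the lower markers, 3 osteoblast, 2 fibroblast, 4 endothelial and 6 myeloid genes would not have passed the filter without rib tissue. The genes of highest mean log2 level over all 6 libraries, a measure that favours genes present in both groups, were Runx2 (0.23, not called), Col5a2 (-2.03), Vwf (-0.20, not called) and Mrc1 (-6.59), and for the muscle, erythroid and Schwann lists Tnnt3 (-4.39), Hba-a2 and Pmp22 (-0.10, not called, and 0.07 after quantile normalization). Hba-a2, whose reads may be shared with nearly identical globin genes, was at 0 throughout the RCS libraries, against 977, 418 and 163 normalized counts in rib tissue. Runx2 was called higher after quantile normalization (0.51), under cyclic loess (0.32) and without RCS library 3 (0.30). The osteoblast markers Sp7 (0.04) and Alpl (-0.29) were also not called under the deposited scaling.

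The genes whose profiles were closest to each member over the 6 libraries were sought among 14105 genes, by the Euclidean distance of log2 levels centred on each gene's mean. For Sox8 they were Qsox2, a thiol oxidase gene (distance 0.181), Setd6 and Cdca7l. Qsox2 had 1388, 1303 and 1215 normalized counts in RCS cells, against 256, 277 and 289 in rib tissue. For Sox9 they were Fam53c (0.135), Lsm6 and the arginine methyltransferase gene Carm1, and for Sox10 Chac2 (0.124), Ppp1r14a and Sprn, which were listed at 0 in every RCS library. For Sox5 they were Mst4 (0.171), Pot1b and Csgalnact1, an enzyme gene of chondroitin sulfate synthesis with 1239, 1400 and 1295 in RCS cells against 976, 988 and 1525 in rib tissue. For Sox6 they were Prickle1, a planar polarity gene (0.101), Dennd1a and the sterol synthesis gene Lss, and for Sox13 Hbegf, a growth factor gene (0.232), Fermt3, an integrin activator gene of blood cells, and Ovol1. The Sox10 neighbours lie near the floor in RCS cells, where Sox10 had 2 to 3 reads per library, so their distances depend on the pseudocount.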

How the data were processed

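RNA sequencing covered 3 RCS and 3 rib libraries, grouped and numbered by sample title. The values deposited by the authors are log2 values in 1 table. In each library part of the low values, taken as powers of 2, fell on multiples of 1 step. All values were therefore read as log2 normalized counts, with values of 1 or less listed as 0. This is an inference, since the name of the deposited table includes RPKM. Of values up to 10 reads, 39.5% to 54.9% lay within 0.01 of a whole read, so no count model was used for the differences. Reads given for single genes are rounded estimates. The interval of the Sox10 read ratio was computed from them with an exact binomial. CASAVA 1.8, DESeq and rn5 are named per the submitters' processing notes. The sources used here name no aligner, counting rule or strand, so antisense or overlapping reads cannot be told apart.

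log2(normalized count + 1) was fitted with limma 3.58.1 in R 4.3.3 (intensity trend, two-sided) on genes at 1 or more in at least 3 libraries. The fit was also run on simulated data. These held few changed genes, evenly split in direction, so they do not test how scaling acts here. Members and 13 gene lists were chosen with earlier results of these data known. Of 175 list names, 167 were matched, 3 of them through Entrez identifiers and RefSeq names of GRCr8. Genes named are the members, the 2 highest and 2 lowest called genes of the cartilage, coactivator and signal lists, the marker of highest mean log2 level over the 6 libraries in each list, all other Sox genes, and the 3 nearest profiles per member. The few others were chosen after their values were seen. Alternatives were 3 scalings, a pseudocount of 0.1, no filter, a filter of 10, a replicate block and each library left out.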

Additional observations from a re-analysis of the deposited data

How the results depend on the processing

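Sox8, Sox10 and Sox13 kept their call and all 6 members their direction under the 13 alternatives with a test. Leaving out 1 library gave Sox9 differences of -0.48 to -0.21 and Sox5l1 differences of 0.12 to 0.53, and Sox6 fell short of the threshold after quantile normalization (-0.14). Relative to the chondrocyte markers, an alternative chosen after seeing the data and run without a test, differences were 2.55 for Sox8, -0.08 for Sox9, -4.33 for Sox10 and -0.17 for Sox6. On this scale median scaling gave the same values to 0.01 (Sox10 -4.32). Quantile normalization gave 1.33 for Sox8, -1.23 for Sox9, -3.73 for Sox10, -0.72 for Sox5l1 and -1.27 for Sox6, and cyclic loess gave 1.74, -0.66, -3.36, -0.15 and -0.71 for these genes, so the sign of Sox5l1 changed under both. Ratio shifts, also rescaled after seeing the data, were -2.50 and -2.70 for Sox10/Sox9 and 5.06 and 5.10 for Sox8/Sox10 after quantile normalization and cyclic loess, and -2.06 for Sox13/Sox5l1 after quantile normalization. The causes were not tested.

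Cartilage genes called higher numbered 17 after quantile normalization, 12 after cyclic loess and 3 to 7 with 1 library left out, against 5. Coactivators called higher numbered 1 under median scaling, 1 under cyclic loess and 1 to 2 with a library left out, against 3. Other Sox genes called higher numbered 2 after quantile normalization and 2 after cyclic loess, against 1. Sign changed for Pmp22 (0.07), Sox15 (1.56) and Lsm6 (0.38) after quantile normalization and for Sox12 (-0.08) and Sox15 (0.91) under cyclic loess.

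Replicate numbers are shared by the groups, but same-numbered libraries deviated together by correlations of 0.0638, -0.0764 and 0.047, so they were not taken as pairs. With the replicate block, 5536 genes were higher and 7340 lower, against 5536 and 7324, no member's call changed and Sox15 was not called (adjusted p 0.0751 in limma). Depth limits Sox10 in RCS cells, at 2 to 3 reads per library.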
